A study of Mus musculus with 6 samples.

Results

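The genes described here are 40 protein-coding genes that act in the G2 phase and mitosis, from entry into mitosis to the final cut between daughter cells. They were taken by name, from a list of symbols matched to the identifiers of the deposited count table, a rule that uses no measured value. The list itself was chosen with earlier results of these data known. All 40 were found among the 55487 genes of the table, and all 40 were among the 13140 genes that passed the filter on low counts. They were read in mouse macrophages of 2 origins. The starting cells, sorted from bone marrow, were TpMos, an abbreviation that the labels do not spell out, or mature Ly6Chi monocytes. Either kind spent 7 days in culture with CSF-1, a growth factor under which monocytes become macrophages and survive. The macrophages that resulted, TpMo-derived and Ly6Chi-derived, were sequenced as 3 libraries each. Per the labels both groups had the same medium with CSF-1 added, and they differ in the cell they were grown from. The labels refer to CSF-1 concentrations in the plural, so whether both groups had the same one is not known and a difference in dose cannot be told apart from one in origin. The CSF-1 concentration of each sample, the mouse strain and the number of animals are not given in the sources used here. No label says whether the libraries of a group are separate cultures or mice, so each p-value weighs a difference against the spread of these libraries alone, and that spread may be technical.

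Cells enter mitosis when the kinase CDK1, bound to a B-type cyclin, is switched on. Microtubules then attach to kinetochores, the protein plates on each centromere, while a checkpoint holds back the anaphase-promoting complex until every chromosome is attached, after which separase cuts the cohesin that holds sister chromatids together and the cell divides. Most transcripts of this machinery are made in a late wave of the cell cycle. The MuvB complex, B-Myb and FOXM1 drive this wave through a short promoter element called the CHR. Many of these promoters also hold an element called the CCAAT box. In macrophages CSF-1 is a signal for division as well as for survival.

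Those elements were looked up in the promoters of the mitosis genes, because they are the sequence features such genes are known to share. RefSeq promoters on GRCm38.p6, 250 bases before to 50 bases after a start, were at hand for 32 of the 40 genes with 34 start sites. Aurkb, Ccna2, Cdc25c, Dlgap5, Foxm1, Kif20a, Smc4 and Tpx2 had none in the table. The CHR was searched as TTTGAA or TTCGAA and the CCAAT box as CCAAT, each on both strands, and matches of the 2 motifs can share no more than an end letter. The 4 stretches below belong to the mitosis genes with the smallest p that hold both motifs before the start, and each runs 5′ to 3′ on the gene's strand up to the last base before the RefSeq start. Capitals mark the CHR and CCAAT letters, or their reverse complement.
Espl1 (separase, chr15:102296239-102296292, plus strand): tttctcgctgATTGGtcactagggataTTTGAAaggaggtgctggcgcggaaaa
Ect2 (cytokinesis, chr3:27153879-27154002, minus strand): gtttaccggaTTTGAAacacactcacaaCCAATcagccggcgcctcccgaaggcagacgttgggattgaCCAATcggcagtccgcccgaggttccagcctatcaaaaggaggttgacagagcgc
Ccnb2 (cyclin B2, chr9:70421555-70421731, minus strand): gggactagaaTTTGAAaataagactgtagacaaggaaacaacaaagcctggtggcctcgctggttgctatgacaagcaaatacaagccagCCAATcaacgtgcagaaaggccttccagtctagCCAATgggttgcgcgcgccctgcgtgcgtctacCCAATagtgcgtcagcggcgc
Cdc20 (APC/C activator, chr4:118437344-118437406, minus strand): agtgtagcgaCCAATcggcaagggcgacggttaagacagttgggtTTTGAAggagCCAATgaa

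The Ccnb2 stretch holds 3 CCAAT boxes after a CHR, and the Espl1 stretch holds 1 CCAAT box on the opposite strand followed by 1 CHR. The stretches end at the start, and past it Ccnb2 held a further CHR (bases 5 to 10). Ect2 held a further CHR (bases 40 to 45) and a further CCAAT box (bases 2 to 6) there. Over all 34 start sites of mitosis genes, 26 (76.5%) held a CHR, 25 (73.5%) held a CCAAT box and 22 (64.7%) held both. Among all 32851 start sites of the reference table the shares were 19.2%, 37.4% and 7.52%. The 77 start sites of other mitotic genes, none of them among the 40, held a CHR in 62.3%, a CCAAT box in 70.1% and both in 48.1%. Start sites of DNA replication genes, which belong to an earlier wave of the cycle, numbered 37 and held a CHR in 16.2%, a CCAAT box in 56.8% and both in 13.5%. By gene, 24 of 32 mitosis genes had a CHR, 23 had a CCAAT box and 20 had both. Birc5, Mad2l1, Nuf2, Nusap1 and Tacc3 had neither, which says only that these letters are not in this window. A match is a description of letters, not a binding site or a cause.

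**Figure D1:**
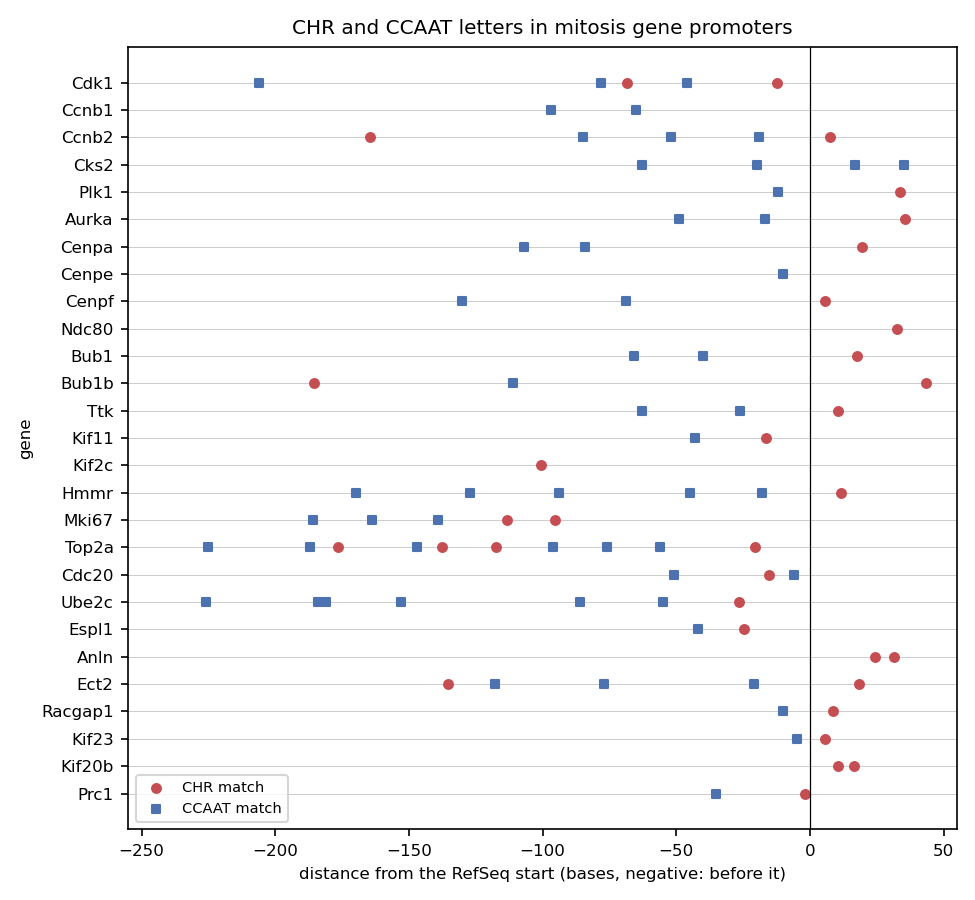
Positions of CHR matches (circles) and CCAAT matches (squares) in bases from the RefSeq start, for the mitosis genes with at least 1 match in 250 bases before to 50 after it, with 1 start site drawn per gene. Most CCAAT matches lie before the start and many CHR matches lie close to it, and Top2a and Ube2c carry the most matches per promoter.

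The libraries held 23765773 to 33042094 counts on genes, so that 3 counts correspond to 0.0921 to 0.130 CPM (counts scaled to TMM-adjusted library totals). Every mitosis gene exceeded 3 counts in each of the 6 libraries, and the lowest count was 44. All 8 macrophage markers were detected in both groups. At an edgeR adjusted p under 0.05, 4 of them were higher in TpMo-derived macrophages, 1 was lower and 3 did not pass. Their median log2 fold change was 0.32, and over all genes tested 6.54% were higher and 5.79% lower. F4/80 (Adgre1), 1 of those that were higher, was at 4330, 3398 and 4316 CPM in TpMo-derived and 1690, 1765 and 1798 CPM in Ly6Chi-derived libraries. The mast cell and basophil markers, 6 of 6, were at 0 in every library. Of 8 T and NK cell markers 6 were at 0, Cd3d, Cd3e and Cd3g among them, and the list summed to 2.82 to 9.58 CPM in TpMo-derived against 0.311 to 1.35 CPM in Ly6Chi-derived libraries. That sum was mostly Cd4, which rose, from 0, 0 and 0.311 CPM to 9.58, 2.82 and 6.25 CPM (edgeR adjusted p = 0.00640). Of 12 neutrophil markers 6 were at 0, Ly6g and Mpo among them (sum 1.11 to 2.75 against 0.218 to 1.49 CPM), and of 7 B and plasma cell markers 5 (sum 2.15 to 4.30 against 1.02 to 4.26 CPM). Of 8 stromal and endothelial markers 6 were at 0, Col1a1 among them (sum 0.694 to 1.66 against 0 to 0.373 CPM), and the endothelial marker Pecam1, at 1.17, 0.780 and 0.694 against 0, 0 and 0.0622 CPM, rose (edgeR adjusted p = 0.0356). The summed level of 7 markers of haematopoietic progenitors was 11.2 to 19.2 CPM in TpMo-derived and 42.4 to 56.2 CPM in Ly6Chi-derived libraries, nearly all of the difference from Cd34 (3.96, 7.43 and 2.43 against 31.9, 39.5 and 50.3 CPM). Flt3 was at 0, and Kit was at 2.46, 3.04 and 0.955 against 0.436, 0 and 0 CPM. The list of erythroid and megakaryocyte markers summed to 118 to 247 against 30.2 to 44.8 CPM, with 4 of 8 at 0, and that of dendritic cells to 112 to 161 against 36.5 to 43.3 CPM, with 3 of 7 at 0. Each of these sums was carried by 1 gene, Pf4 in the first and Bst2, which interferon also induces, in the second. Mitochondrial genes took 1.45% to 1.51% of the counts of TpMo-derived libraries against 1.20% to 1.35% in the other group, with no overlap. The part of such cells, and of this share, in the results that follow was not tested.

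Within each group 1 library stood apart for mitosis genes. TpMo-derived replicate 2 was the highest of its group in 38 of the 40 genes, and Ly6Chi-derived replicate 1 was the highest of its group in 38 of 40, whereas over all genes tested each library was the highest of its group in 32.0% to 34.4%. The summed level of the 40 genes was 1046, 1640 and 1046 CPM in TpMo-derived and 3616, 2538 and 2656 CPM in Ly6Chi-derived libraries. The groups did not overlap in this sum, and TpMo-derived replicate 2 lay nearest to the Ly6Chi-derived libraries. Results are therefore given with and without these 2 libraries where that changes them.

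Most of the 40 mitosis genes stood lower in TpMo-derived macrophages, in each of the 7 roles described below. Of the 40 genes, 34 fell in TpMo-derived against Ly6Chi-derived macrophages, 0 rose (also 0 at an unadjusted p under 0.05, and 0 in limma-voom and DESeq2) and 6 did not pass (quasi-likelihood test of edgeR, with p adjusted by Benjamini-Hochberg over all genes tested and a threshold of 0.05). Over all 13140 genes tested, 5.79% fell and 6.54% rose. The median log2 fold change of the mitosis genes was -1.34, from -2.19 (Cenpf) to -0.40 (Ttk), beside a median of 0.0054 over all genes tested. All 40 fold changes were below 0, as were 49.5% of those of the genes tested. In 37 of 40 genes every TpMo-derived library was below every Ly6Chi-derived one, beside 15.2% of genes tested. Being at least 2-fold lower and past the test held for 32 mitosis genes, beside 2.34% of genes tested. In bulk RNA, fewer dividing cells and less of these transcripts in each cell cannot be told apart.

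**Figure D2:**
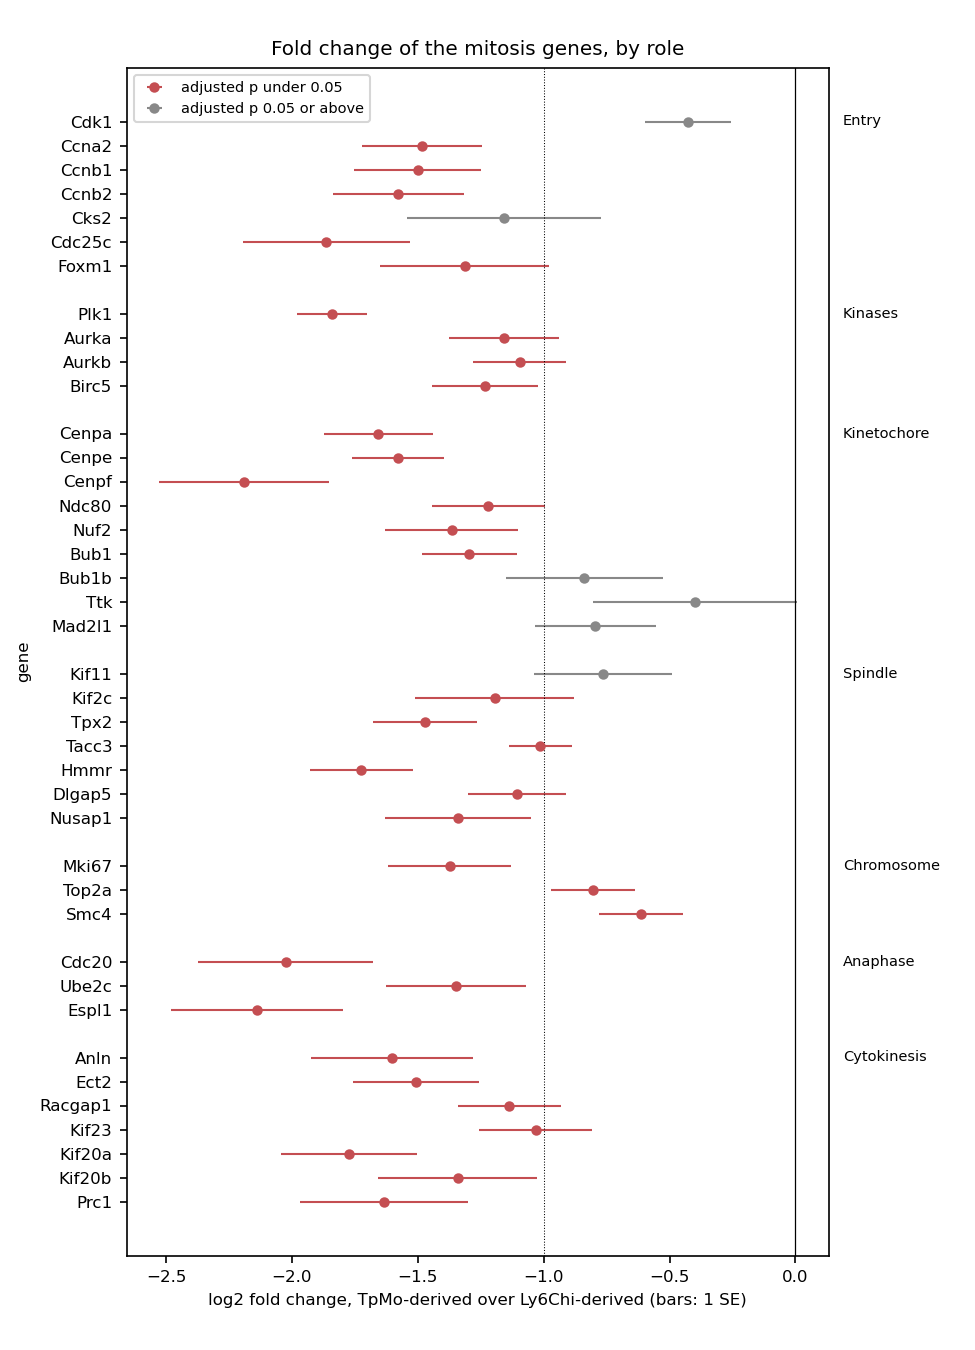
Log2 fold change of each of the 40 mitosis genes, TpMo-derived over Ly6Chi-derived, with bars of 1 SE (3 libraries a group) and the dotted line at 2-fold lower, grouped by role. All points lie left of 0, from -2.19 for Cenpf to -0.40 for Ttk, and the 6 grey points are the genes that did not pass.

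The count rested in part on single libraries. It was 37 without TpMo-derived replicate 2, where 5.39% of genes tested fell, and 25 without Ly6Chi-derived replicate 1, where 3.43% fell. Without both, an omission chosen after the values were seen, it was 35, beside 3.8% of genes tested. The median log2 fold change was -1.50 without both. Of the 34 genes that fell, 24 passed the test whichever library was left out.

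Genes of mitotic entry are the cyclins, CDK1 and their activators, and 5 of 7 fell, with a median log2 fold change of -1.48. Ccna2 (chr3:36564865-36572150), cyclin A2, which serves in S phase and G2, was at 27.7, 53.4 and 32.4 CPM in TpMo-derived and 132, 89.0 and 96.6 CPM in Ly6Chi-derived libraries. Ccnb2 (chr9:70407692-70421547), cyclin B2, was at 23.6, 38.8 and 20.1 against 109, 71.5 and 66.6 CPM. For both cyclins replicate 2 was the highest TpMo-derived library and replicate 1 the highest Ly6Chi-derived one, and the groups did not overlap. The log2 fold change was -1.48 ± 0.24 (SE) for Ccna2 (edgeR adjusted p = 0.00288) and -1.58 ± 0.26 for Ccnb2 (edgeR adjusted p = 0.00338). Ccnb1, cyclin B1, and Cdc25c, a phosphatase that activates CDK1, also fell, with log2 fold changes of -1.50 and -1.86.

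Cdk1 itself (chr10:69335146-69352938) was at 53.7, 82.5 and 61.7 against 100.0, 74.1 and 92.0 CPM. TpMo-derived replicate 2 exceeded Ly6Chi-derived replicate 2, so the groups overlapped, and the log2 fold change of -0.43 ± 0.17 did not pass (edgeR adjusted p = 0.148). In edgeR the adjusted p was 0.0329 without TpMo-derived replicate 2, 0.1085 to 0.376 without any other single library and 0.0889 without both libraries. The cyclins thus had larger measured fold changes than the kinase they activate, a contrast between genes that was not tested. Cks2, a small subunit of the CDK1 complex, was at 2.27, 4.16 and 1.91 against 6.68, 5.97 and 5.97 CPM. Its groups did not overlap, but at this low level the log2 fold change of -1.16 ± 0.39 did not pass (edgeR adjusted p = 0.0861). For Cks2 the edgeR adjusted p was 0.0310 without TpMo-derived replicate 2, 0.164 to 0.214 without any other single library and 0.0949 without both. Foxm1, the transcription factor of the late wave, fell by 1.31 on the log2 scale (edgeR adjusted p = 0.0291). That call was lost without TpMo-derived replicate 1 or 3 (adjusted p = 0.104 and 0.111) or without Ly6Chi-derived replicate 1, 2 or 3 (adjusted p = 0.125, 0.0636 and 0.0612).

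The role of mitotic kinases, here Plk1, Aurka and Aurkb, together with survivin fell in 4 of 4, with a median log2 fold change of -1.19. The kinases Cdk1, Bub1 and Ttk are counted in other roles, and of these Cdk1 and Ttk did not pass. Plk1 (chr7:122159439-122169873), Polo-like kinase 1, which acts from centrosome maturation to cytokinesis, had the smallest p of the 40 genes. It was at 20.5, 24.4 and 18.9 CPM in TpMo-derived and 80.7, 72.3 and 75.9 CPM in Ly6Chi-derived libraries. The lowest Ly6Chi-derived value was thus far above the highest TpMo-derived one, and no library stood apart from its group. The level was 3.58-fold lower, a log2 fold change of -1.84 ± 0.14 (edgeR adjusted p = 3.22e-05).

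Aurkb (chr11:69045647-69051664), Aurora B, the kinase that corrects wrong attachments, was at 24.7, 28.8 and 18.4 against 57.7, 45.8 and 50.1 CPM (log2 fold change -1.10 ± 0.19, edgeR adjusted p = 0.00391). Aurka (chr2:172356190-172370535), Aurora A, which works at spindle poles, was at 22.9, 37.1 and 30.8 against 87.3, 55.3 and 59.6 CPM (log2 fold change -1.16 ± 0.22, edgeR adjusted p = 0.00677). Neither gene's groups overlapped, and both kept their call whichever library was left out. Birc5, survivin, which docks Aurora B at centromeres, fell by 1.23 on the log2 scale.

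Kinetochore and checkpoint genes fell in 6 of 9, with a median log2 fold change of -1.30. Cenpe (chr3:135212537-135273611), the kinesin that carries chromosomes to the spindle equator, was at 20.6, 16.5 and 20.8 against 70.3, 47.3 and 55.3 CPM. Here TpMo-derived replicate 2 was the lowest of its group, against the usual order, and the log2 fold change was -1.58 ± 0.18 (edgeR adjusted p = 3.98e-04). Cenpa (chr5:30666777-30674830), the histone H3 variant that marks centromeres, was at 18.5, 31.0 and 17.4 against 72.5, 62.6 and 75.9 CPM (log2 fold change -1.66 ± 0.22, edgeR adjusted p = 8.65e-04). Its groups did not overlap. Cenpf, a large outer kinetochore protein, showed the lowest fold change of the 40 genes, -2.19 ± 0.34 (edgeR adjusted p = 0.00226). The microtubule-binding subunits Ndc80 and Nuf2 and the checkpoint kinase Bub1 fell by 1.22, 1.37 and 1.30 on the log2 scale.

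The other 3 genes of this role, all parts of the spindle checkpoint, did not pass. Mad2l1, MAD2, which inhibits the APC/C activator CDC20, was at 26.7, 59.6 and 41.6 against 82.3, 69.0 and 70.4 CPM. Its groups did not overlap (log2 fold change -0.80 ± 0.24, edgeR adjusted p = 0.0597). For Mad2l1 the edgeR adjusted p was 0.00781 without TpMo-derived replicate 2, 0.0992 to 0.187 without any other single library and 0.0267 without both libraries. Bub1b, BUBR1, the partner of MAD2 in that inhibition, was at 23.2, 63.3 and 35.2 against 89.1, 55.8 and 72.7 CPM. Its groups overlapped through TpMo-derived replicate 2 (log2 fold change -0.84 ± 0.31, edgeR adjusted p = 0.124). For Bub1b the edgeR adjusted p was 0.00889 without that library, 0.129 to 0.344 without any other single library and 0.0258 without both. Ttk, the kinase MPS1 that starts the checkpoint signal, was at 9.64, 15.6 and 5.69 against 20.6, 11.3 and 8.86 CPM. Each group spanned more than a 2-fold range and they overlapped widely. The log2 fold change of Ttk was -0.40 ± 0.40 (edgeR adjusted p = 0.634) and 0.025 without Ly6Chi-derived replicate 1.

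**Figure D3:**
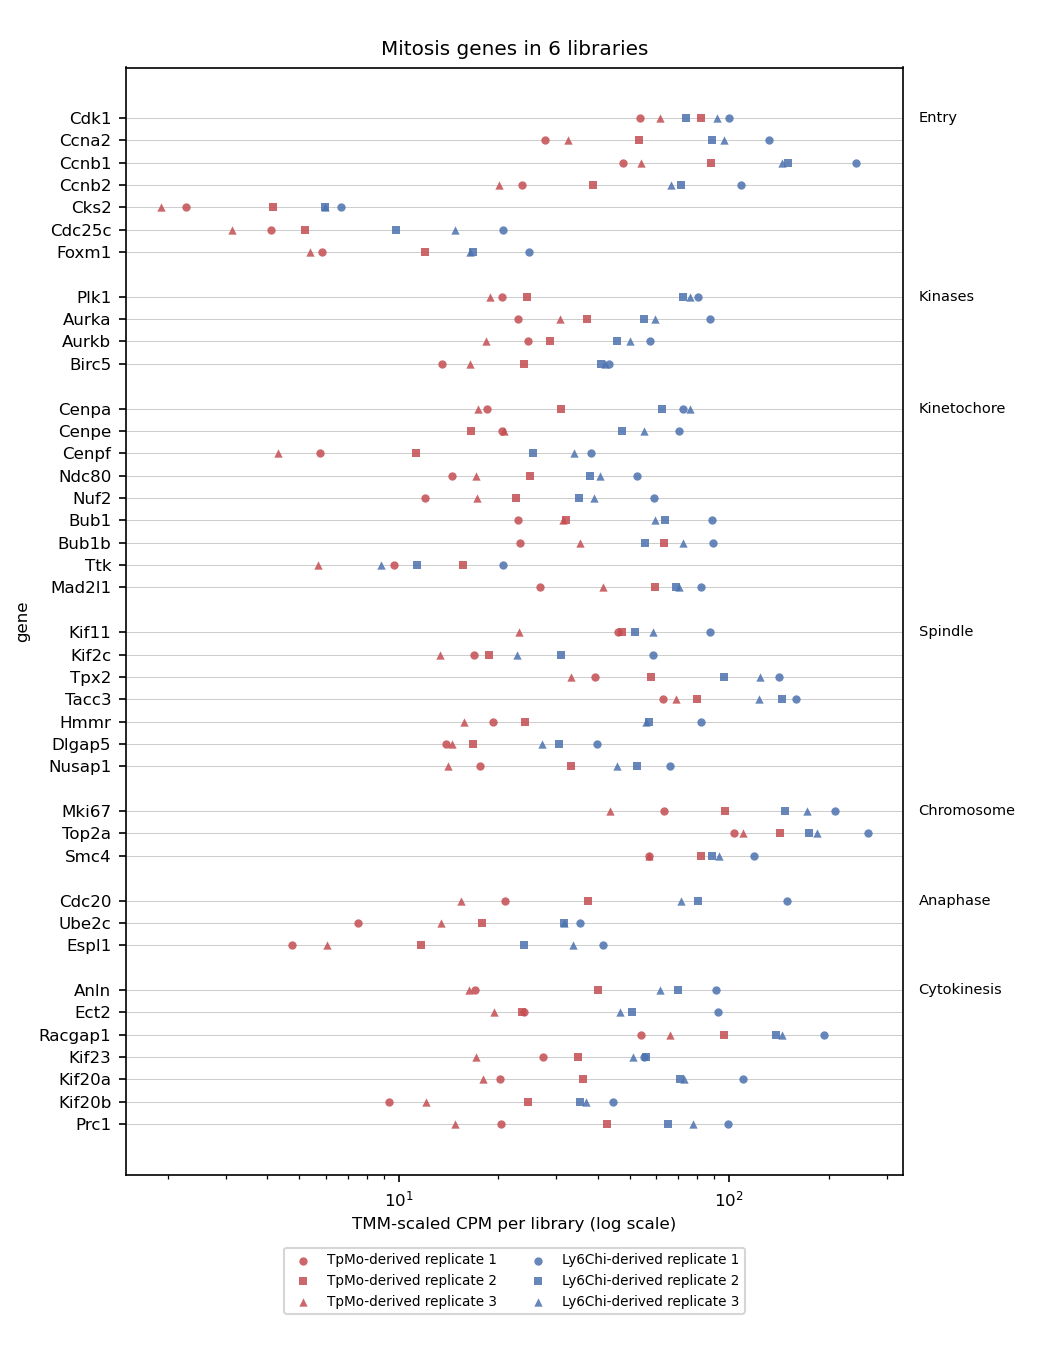
CPM of each mitosis gene in each library on a log axis, with TpMo-derived libraries in red, Ly6Chi-derived libraries in blue and 1 marker shape per replicate, grouped by role. The red and blue points of a gene overlap only for Cdk1, Bub1b and Ttk, and red squares (TpMo-derived replicate 2) lie to the right of the other red points in 38 of 40 genes.

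Spindle motors and assembly factors fell in 6 of 7, with a median log2 fold change of -1.19. Hmmr (chr11:40701395-40733422), a microtubule-associated protein of the spindle poles, was at 19.3, 24.1 and 15.8 against 82.4, 57.3 and 56.1 CPM (log2 fold change -1.72 ± 0.21, edgeR adjusted p = 4.91e-04). Tacc3 (chr5:33658128-33678995), which Aurora A phosphorylates to steady spindle fibres, was at 63.0, 79.7 and 68.9 against 160, 144 and 123 CPM (log2 fold change -1.01 ± 0.13, edgeR adjusted p = 6.24e-04). The groups were apart for both genes. Tacc3 had a smaller log2 fold change than Hmmr, a contrast that was not tested, and its libraries lay closer together within each group.

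Kif11 (chr19:37376403-37421859), the kinesin-5 motor that pushes spindle poles apart, was at 46.1, 47.4 and 23.1 against 87.7, 51.8 and 58.9 CPM. The highest TpMo-derived library was only just below the lowest Ly6Chi-derived one, and the log2 fold change of -0.76 ± 0.28 did not pass (edgeR adjusted p = 0.112). Tpx2, an activator of Aurora A, and Dlgap5, a spindle assembly factor, fell by 1.47 and 1.11 on the log2 scale. Nusap1, a microtubule bundler, fell by 1.34 on the log2 scale (edgeR adjusted p = 0.0137), a call lost without TpMo-derived replicate 1 or 3 (adjusted p = 0.0615 and 0.0515) or Ly6Chi-derived replicate 1 (adjusted p = 0.0700). Kif2c, a kinesin that takes microtubules apart, was at 58.8 CPM in Ly6Chi-derived replicate 1, beside 31.0 and 22.7 CPM in the other Ly6Chi-derived libraries. Its log2 fold change was -1.19 ± 0.32 (edgeR adjusted p = 0.0341) but -0.72 without that library (adjusted p = 0.116). The call of Kif2c was also lost without TpMo-derived replicate 1, 2 or 3 (adjusted p = 0.0954, 0.0584 and 0.137) or Ly6Chi-derived replicate 2 (adjusted p = 0.0626). Without TpMo-derived replicate 2 and Ly6Chi-derived replicate 1 together, the log2 fold change of Kif2c was -0.83 and did not pass (edgeR adjusted p = 0.103).

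All 3 genes of chromosome structure fell, and their median log2 fold change of -0.80 was the smallest of any role. Mki67 (chr7:135689784-135716361), the Ki-67 protein that coats mitotic chromosomes, was at 63.3, 96.8 and 43.6 against 209, 148 and 171 CPM (log2 fold change -1.37 ± 0.24, edgeR adjusted p = 0.00510). Top2a (chr11:98992943-99024189), topoisomerase II alpha, which untangles sister DNA, was at 104, 142 and 110.1 against 263, 174 and 185 CPM (log2 fold change -0.80 ± 0.17, edgeR adjusted p = 0.0111). Smc4 (chr3:69004738-69034623), a core subunit of both condensins, was at 57.2, 82.0 and 57.0 against 119, 88.5 and 93.0 CPM (log2 fold change -0.61 ± 0.17, edgeR adjusted p = 0.0389). None of the 3 overlapped between groups, though TpMo-derived replicate 2 came close to the lowest Ly6Chi-derived library for Smc4. Top2a lost its call without TpMo-derived replicate 1 or 3 (adjusted p = 0.0513 and 0.0615). Smc4 lost it without TpMo-derived replicate 1 or 3 (adjusted p = 0.135 and 0.148) or Ly6Chi-derived replicate 1, 2 or 3 (adjusted p = 0.153, 0.0595 and 0.0816).

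The anaphase genes fell in 3 of 3 and had the lowest median of any role, -2.03 on the log2 scale. Espl1 (chr15:102296266-102324357), separase, the protease that cuts cohesin, was at 4.76, 11.7 and 6.08 against 41.4, 23.9 and 33.6 CPM. Cdc20 (chr4:118432901-118437352), the APC/C activator that the checkpoint holds back, was at 20.9, 37.5 and 15.4 against 149, 80.4 and 71.3 CPM. Both were about 4-fold lower with no overlap between groups, 4.40-fold for Espl1 (log2 fold change -2.14 ± 0.34, edgeR adjusted p = 0.00272) and 4.07-fold for Cdc20 (log2 fold change -2.03 ± 0.35, edgeR adjusted p = 0.00423). Ube2c (chr2:164769898-164778822), the ubiquitin-conjugating enzyme that works with the APC/C, was at 7.52, 17.9 and 13.5 against 35.5, 31.5 and 31.7 CPM. Its log2 fold change was -1.35 ± 0.28 (edgeR adjusted p = 0.0109, or 0.0504 without Ly6Chi-derived replicate 1). Of the exon length of Ube2c, 22.8% overlaps Tnnc2, and reads on that stretch were left out of the counts.

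Cytokinesis genes fell in 7 of 7, with a median log2 fold change of -1.51. Kif20a (chr18:34624613-34633277), a kinesin of the central spindle, was at 20.3, 36.0 and 17.9 against 109.8, 71.1 and 73.1 CPM (log2 fold change -1.77 ± 0.27, edgeR adjusted p = 0.00204). Of its exon length 29.3% overlaps Cdc23, so its level is an underestimate in both groups. The same holds, with smaller shares, for Cdc25c (12.7%, with Gm3550), Ccna2 (12.5%, with Exosc9) and Prc1 (11.1%, with Rccd1). Ect2 (chr3:27097222-27153878), which activates the GTPase RhoA at the cleavage furrow, was at 23.8, 23.6 and 19.4 against 92.8, 50.9 and 46.8 CPM (log2 fold change -1.51 ± 0.25, edgeR adjusted p = 0.00337). The 3 TpMo-derived libraries agreed closely for Ect2, whereas Ly6Chi-derived replicate 1 was well above the other Ly6Chi-derived libraries. Racgap1 and Kif23, the subunits of the centralspindlin complex that recruits Ect2, fell by 1.14 and 1.03 on the log2 scale.

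Kif20b (chr19:34922361-34975745), a kinesin of late cytokinesis, was at 9.33, 24.6 and 12.1 against 44.4, 35.3 and 36.9 CPM. TpMo-derived replicate 2 held over 2 times the level of replicate 1, and the log2 fold change was -1.34 ± 0.32 (edgeR adjusted p = 0.0206). The call of Kif20b was lost without TpMo-derived replicate 1 or 3 (adjusted p = 0.0557 and 0.0936) or Ly6Chi-derived replicate 1, 2 or 3 (adjusted p = 0.0866, 0.0540 and 0.0609). Anln, an actin-binding scaffold of the cleavage furrow, and Prc1, which bundles the microtubules of the central spindle, fell by 1.60 and 1.63 on the log2 scale. Without Ly6Chi-derived replicate 1 the adjusted p was 0.0512 for Anln, 0.0562 for Prc1 and 0.0591 for Kif23, and it was 0.0515 for Prc1 without TpMo-derived replicate 1 and 0.0590 for Kif23 without Ly6Chi-derived replicate 2.

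Per kilobase of exon, the level over all 6 libraries ranged from 1.29 CPM for Cenpf to 35.8 CPM for Ccnb2. After Ccnb2, the highest levels per kilobase were those of Cdc20 (33.5 CPM), Tacc3 (30.0 CPM), Ccnb1 (28.7 CPM) and Plk1 (22.2 CPM), and the lowest after Cenpf were those of Cdc25c (1.96 CPM), Espl1 (2.31 CPM), Foxm1 (2.35 CPM) and Ttk (2.43 CPM). Large fold changes were found at both ends of this order, with Cdc20 near the top and Cenpf and Espl1 near the bottom.

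Mitosis genes varied more between libraries of a group than other genes did. Their median SD of log2 CPM was 0.463 between TpMo-derived and 0.294 between Ly6Chi-derived libraries, beside 0.185 and 0.167 for genes tested with a mean of at least 5 CPM. The level of a mitosis gene in TpMo-derived replicate 2, divided by the mean of the other TpMo-derived libraries, had a median of 1.60 and ranged from 0.796 for Cenpe to 2.44 for Prc1. In Ly6Chi-derived replicate 1 the same ratio had a median of 1.38 and ranged from 1.03 for Kif23 to 2.19 for Kif2c. Over genes tested with at least 5 CPM these medians were 0.998 and 0.996. The shift of TpMo-derived replicate 2 towards the other group was not limited to mitosis genes. Among the 727 other genes that fell, it was the TpMo-derived library nearest to the Ly6Chi-derived ones in 46.8%, and among the 859 that rose in 47.1%. Over all genes tested TpMo-derived replicate 2 was the highest of its group in 33.8%. The 727 include other mitotic genes described below. Ly6Chi-derived replicate 1 was the library of its group farthest from the TpMo-derived ones in 31.4% of the 727 and 33.4% of the 859. Adgre1 and Pf4, both higher in TpMo-derived macrophages, were lowest of that group in replicate 2 (3398 CPM for Adgre1, and 117 CPM for Pf4 beside 228 and 246 CPM). What sets this library apart was not tested.

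**Figure D4:**
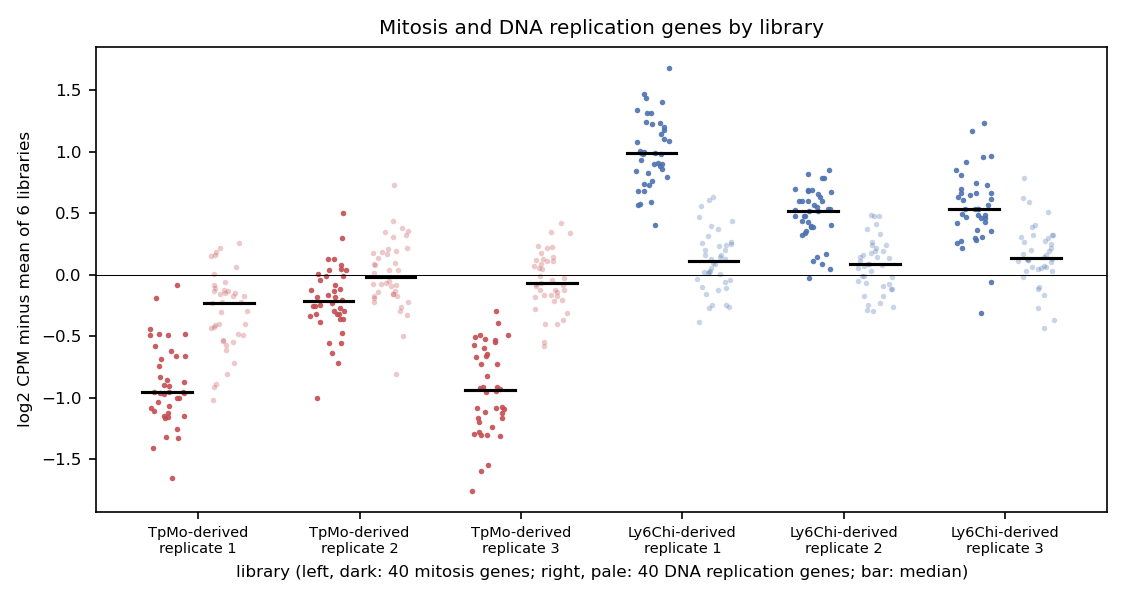
Log2 CPM minus the mean of the 6 libraries, in each library, for the 40 mitosis genes (dark points) and 40 DNA replication genes (pale points), with a bar at each median. Mitosis gene medians were -0.95, -0.22 and -0.94 in TpMo-derived and 0.98, 0.52 and 0.53 in Ly6Chi-derived libraries, while the replication genes stay closer to 0.

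Other genes of the cell cycle were read by function from lists that hold none of the 40 genes. Of 81 other mitotic genes, 43 fell and 1 rose, with a median log2 fold change of -0.98. This count moved with the libraries, to 26 without TpMo-derived replicate 3, 20 without Ly6Chi-derived replicate 1 and 28 without TpMo-derived replicate 2 and Ly6Chi-derived replicate 1. The library order recurred, with TpMo-derived replicate 2 highest of its group in 54 of the 81 genes and Ly6Chi-derived replicate 1 in 56. Nek2, a centrosome kinase, was at 16.9, 26.1 and 21.3 against 101, 70.9 and 61.6 CPM (log2 fold change -1.86, edgeR adjusted p = 4.24e-04). Psrc1, a microtubule regulator, was at 3.68, 4.08 and 2.39 against 19.2, 16.5 and 15.8 CPM (log2 fold change -2.34, edgeR adjusted p = 4.42e-04). Both were far apart between groups. Bub3, the checkpoint partner of Bub1 and Bub1b and the list's most abundant gene per kilobase, fell by only 0.39 on the log2 scale (edgeR adjusted p = 0.00801, or 0.0519 without both libraries).

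The gene that rose was Zwint, a kinetochore protein that binds KNL1. It was at 113, 106 and 106 CPM in TpMo-derived against 83.4, 82.0 and 82.0 CPM in Ly6Chi-derived libraries, the opposite order to the 40 genes. Its log2 fold change of 0.39 passed (edgeR adjusted p = 0.0160) but not without TpMo-derived replicate 1 (adjusted p = 0.0583) or Ly6Chi-derived replicate 1, 2 or 3 (adjusted p = 0.0544, 0.0723 and 0.0603), nor without TpMo-derived replicate 2 and Ly6Chi-derived replicate 1 (adjusted p = 0.0792).

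Genes of condensin, cohesin and the APC/C had smaller median changes. Of 19 condensin and cohesin genes, counting cohesin factors such as Nipbl, Wapl and Esco2, 2 fell, 0 rose and the median log2 fold change was -0.20. Ncapg2, a condensin II subunit, was at 45.6, 29.0 and 30.0 against 97.5, 74.4 and 81.0 CPM (log2 fold change -1.27, edgeR adjusted p = 0.00175). The condensin subunit Smc2, partner of Smc4, fell by 0.64 on the log2 scale (edgeR adjusted p = 0.0296), a call that held without TpMo-derived replicate 2 and was lost without each of the other 5 libraries (adjusted p = 0.0696 to 0.118). Limma-voom and DESeq2 each called 5 of the 19 lower and 0 higher, and 9 were lower and 0 higher at an unadjusted p under 0.05 in edgeR. On simulated counts, described with the processing, DESeq2 made 33 false calls and edgeR 6. Without TpMo-derived replicate 2, alone or with Ly6Chi-derived replicate 1, the list's count was 5, and it was 1 without TpMo-derived replicate 1 or 3 or Ly6Chi-derived replicate 1 or 3. Of 16 genes, the APC/C core subunits with Fzr1 and Ube2s, 0 passed in edgeR and 2 were lower at an unadjusted p under 0.05. Their median was -0.02, beside the fall of Cdc20 and Ube2c. Limma-voom and DESeq2 each called 1 of these 16 genes lower, as did edgeR without Ly6Chi-derived replicate 1.

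A list of CDK1 brakes and mitotic phosphatases also held Cdc25a, Ensa and Arpp19, so not all of its genes restrain CDK1. Of its 17 genes 2 fell and 1 rose, with a median log2 fold change of -0.10. Cdkn3, a phosphatase that acts on CDKs, was at 2.58, 2.49 and 2.13 against 8.39, 10.0 and 9.45 CPM (log2 fold change -1.95, edgeR adjusted p = 0.00189). The checkpoint kinase Chek2, the other gene that passed as lower, fell by 1.06 on the log2 scale. Ppp2ca, a catalytic subunit of the phosphatase PP2A, rose (log2 fold change 0.61, edgeR adjusted p = 0.0449), a call lost without each library in turn (adjusted p = 0.0797 to 0.147), without TpMo-derived replicate 2 and Ly6Chi-derived replicate 1 together (adjusted p = 0.169) and with library sizes alone (adjusted p = 0.0660). Among 28 tested genes of MuvB, B-Myb, the E2F family, pocket proteins and CDK inhibitors, 4 fell and 1 rose, with a median of -0.16. The transcription factors E2f2 and Tfdp2 fell by 0.97 and 0.81 on the log2 scale, and Cdkn2d, p19, fell by 0.92. E2f2 lost its call without TpMo-derived replicate 2 and Ly6Chi-derived replicate 1 (adjusted p = 0.0618). Tfdp2 lost it without each single library but Ly6Chi-derived replicate 1 (adjusted p = 0.0522 to 0.0926), and Cdkn2d without TpMo-derived replicate 1 or 3 or Ly6Chi-derived replicate 1 or 3 (adjusted p = 0.0655 to 0.0956). Tfdp2 and Cdkn2d are named because they complete the count, after their values were seen. The count of 4 was 2 without TpMo-derived replicate 1 or 3 or Ly6Chi-derived replicate 3. The inhibitors did not move together. Cdkn1a, p21, was at 313, 352 and 378 against 438, 520.2 and 544 CPM and fell by 0.53 on the log2 scale (edgeR adjusted p = 0.00571). Cdkn2b, p15, which blocks CDK4 and CDK6, was at 7.34, 9.32 and 8.59 against 1.05, 0.842 and 0.622 CPM and rose, with a log2 fold change of 3.32 (edgeR adjusted p = 3.30e-04).

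Genes of DNA replication had a smaller median change. Of 40 tested, 5 fell and 2 rose, the median log2 fold change was -0.25, and 29 values lay below 0. DESeq2 called 8 lower, edgeR called 7 without TpMo-derived replicate 2, and 9 were lower at an unadjusted p under 0.05. The count of 5 was 2 without TpMo-derived replicate 1 or 3 or Ly6Chi-derived replicate 1, 1 without Ly6Chi-derived replicate 3 and 3 without TpMo-derived replicate 2 and Ly6Chi-derived replicate 1. Pcna, the sliding clamp of DNA polymerases, was at 454, 519 and 547 against 314, 340.3 and 338 CPM (log2 fold change 0.62, edgeR adjusted p = 7.45e-04). Mcm6, a subunit of the replicative helicase, was at 475, 461 and 474 against 340.1, 362 and 364 CPM (log2 fold change 0.40, edgeR adjusted p = 0.00177). Both rose, in the opposite direction to the mitosis genes. Rrm2, a subunit of ribonucleotide reductase, was at 92.0, 163 and 117 against 264, 220.3 and 243 CPM and fell by 0.97 on the log2 scale (edgeR adjusted p = 0.00535). Cdc6, which loads the helicase, fell by 0.89 on the log2 scale (edgeR adjusted p = 0.0112, or 0.0540 without Ly6Chi-derived replicate 3). Tk1, Mcm10 and Chaf1b complete the 5 and were likewise named after their values were seen. Each of the 3 lost its call without TpMo-derived replicate 1 or 3 or Ly6Chi-derived replicate 1 or 3, and Chaf1b also without Ly6Chi-derived replicate 2 (adjusted p = 0.0531 to 0.0953). The lists were not compared by a test.

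**Figure D5:**
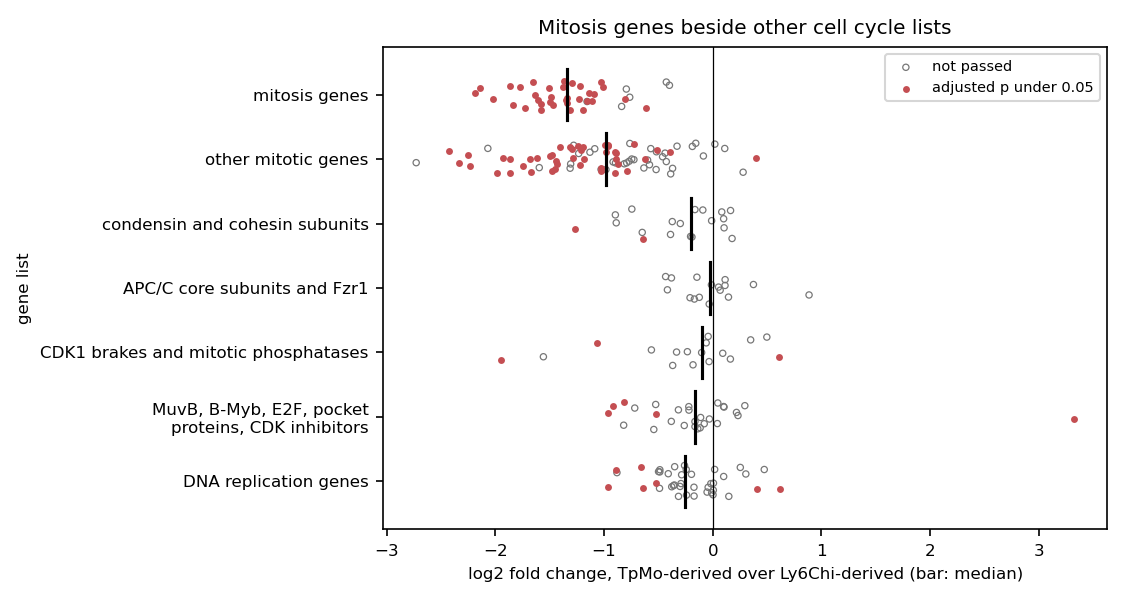
Log2 fold change of every tested gene in the mitosis list and 6 other cell cycle lists, with filled points for genes past the test, open points for the rest and a bar at each median. The medians are -1.34 for the mitosis genes and -0.98 for other mitotic genes, and lie between -0.25 and -0.02 in the remaining lists.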

How the data were processed

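A table of raw counts, 1 row a gene and 1 column for each of the 6 RNA sequencing libraries, is what the authors deposited. Reads over exons were counted with featureCounts 1.6.3, per the file headers, against the annotation GENCODE M22 and with no option for pairs, strand or shared reads, so that by the program's defaults mates were counted separately, strand was ignored, and reads on several genes or several places were left out. STAR and GRCm38 come from the submitters' processing notes, whereas no version of STAR is given in the sources used here. Gene symbols came from GENCODE M21 (55394 identifiers matched, 93 did not), and gene positions from the deposited table. Replicates were numbered in accession order, and no label gives a batch or a pairing.

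The test was edgeR 4.0.16, run under R 4.3.3 with no covariate. Genes had to pass filterByExpr (minimum count 10, minimum total 15), TMM set the library scaling, and p-values of the quasi-likelihood test with robust estimation were adjusted by Benjamini-Hochberg over 13140 genes. An SE is the absolute log2 fold change divided by the square root of F. Limma-voom (limma 3.58.1), DESeq2 1.42.0, other scalings, filters and thresholds, and leaving out each library were alternatives. On simulated counts with 100 genes changed 2-fold and 100 changed 4-fold, 12607 genes entered the edgeR test, which recovered 46 and 70 of them, with 0 in the wrong direction and 6 false calls. The requirement set for this test was first more than 70 of the 4-fold genes. It was lowered after that result, with the fit unchanged, and many of the changed genes were missed. On the same simulated counts limma-voom recovered 44 and 69 genes with 5 false calls, and DESeq2 recovered 55 and 73 with 33 false calls. DESeq2 thus made more false calls than edgeR there. Counts of 2 libraries of a group differed beyond sampling noise in every pair (chi-square per degree of freedom 21.9 to 36.8). Floors of 3 counts cover counting error only.

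The 40 genes, the lists and the tests were chosen with earlier results of these data known. Full values are given, in each role, for the 2 genes with the smallest p, the gene with the largest p and each gene that did not pass. In each list up to 2 genes a direction with the smallest p and the most abundant per kilobase could be named. Other genes of the text were named after their values were seen.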

Additional observations from a re-analysis of the deposited data

How the results depend on the processing

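The count of mitosis genes that fell was 34 and stayed between 25 and 37 when any library was left out, and between 25 and 37 in all settings but the test against a 1.5-fold change, which gave 16. No setting called any of them higher, and their median log2 fold change stayed between -1.59 and -1.16 without any 1 library. Of 600 single values of the 40 genes across 15 alternatives, 523 kept their direction and their side of the threshold, 64 lost the call, 12 gained it and 1 turned, that of Ttk, which lay between -0.82 and 0.025 when 1 library was left out, the latter without Ly6Chi-derived replicate 1. Of the 34 genes, 14 passed in all 15. Without a count filter 29 fell, and Ccnb1, Mki67, Cdc20, Anln and Prc1 lost their call.

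Over all genes, 761 fell and 859 rose. DESeq2 called 1165 lower. An adjusted p under 0.01 left 331 lower and 454 higher, and the 1.5-fold test 126 and 191. Scaling by library sizes alone gave more lower than higher, 902 against 737. Without any 1 library 445 to 742 were lower (474, 445 and 471 without Ly6Chi-derived replicates 1, 2 and 3) and 531 to 750 higher (564 without TpMo-derived replicate 3, 531 without Ly6Chi-derived replicate 2), and without TpMo-derived replicate 2 and Ly6Chi-derived replicate 1, chosen after seeing the data, 535 were higher. The count of 43 other mitotic genes was 19 at an adjusted p under 0.01 and 12 in the 1.5-fold test. Of list genes not called, Anapc2 lay between -0.021 (without Ly6Chi-derived replicate 2) and 0.15, and Ensa between -0.12 and 0.020 (without TpMo-derived replicate 3). The causes were not tested. No paired analysis was possible because the labels give the libraries no replicate numbers that the groups share.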
